A study of Homo sapiens with 24 samples.

Results

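The comparison described here set HCT116 cells that lack TNRC6A and TNRC6B and were transfected with duplex RNAs against TNRC6C beside wild type HCT116 cells that received the same duplex RNAs. The members were taken from the sample labels: 3 TNRC6AB-/- siTNRC6C libraries and 3 wild type siTNRC6C libraries, 6 of the 24 RNA-seq libraries of the series. The 24 libraries fall into 8 groups of 3: untransfected TNRC6A-/-, TNRC6B-/-, TNRC6AB-/- and wild type cells, and TNRC6AB-/- and wild type cells transfected with siTNRC6C or with siGL2, a control duplex directed at luciferase. HCT116 is a human colorectal cancer line. The TNRC6A allele carries a frameshift and the TNRC6B allele a large deletion. Since siTNRC6C was given to both genotypes, the comparison asks what the loss of TNRC6A and TNRC6B does in cells in which TNRC6C is silenced as well. All 6 libraries share the HCT116 origin, the transfection lipid and the duplex pool, and they differ by genotype and by the supplier of the cells. The paper names Horizon Discovery as the source of the wild type cells and GenScript as that of the knockout cells. The TNRC6AB-/- cells were seeded at a higher number per well than the wild type cells. The sources used here describe a single TNRC6AB-/- line and do not say whether it is a clone. Effects of gene loss, of supplier, of seeding number and of other differences between the lines therefore cannot be told apart in these libraries.

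The TNRC6 proteins (GW182 in fly) are scaffolds of RNA silencing. They bind Argonaute, the protein that holds the microRNA, through tryptophan residues in their amino-terminal part, and bring in the CCR4-NOT and PAN2-PAN3 deadenylases and poly(A)-binding protein through their carboxy-terminal part, so that the target mRNA loses its poly(A) tail and is decapped, degraded or translated less. Human cells have the paralogs TNRC6A, TNRC6B and TNRC6C, which share these functions. A microRNA finds its targets mainly through its seed, bases 2 to 8 of its 5′ end, which pairs with sites in 3′ untranslated regions (3′UTRs). In colon epithelium, let-7 holds down growth and oncofetal genes and the miR-200 family holds down the ZEB transcription factors.

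The antisense strands of the siTNRC6C pool are shown because they define what was silenced in all 6 libraries. They are printed 5′ to 3′ with the seed in capitals, as listed in the supplement of the study.
siTNRC6C AS1: aAGUGGACguuugugguuc
siTNRC6C AS2: uACUGAUGucaaccuggaaguguagaa
siTNRC6C AS3: uGACAUUCauguuuggguucaguccag
Each strand matched TNRC6C perfectly over its 19, 27 or 27 bases, in 5 of the 7 coding transcripts of GENCODE 29. On the GRCh38 build the AS1 site lay in coding sequence in exon 3 of 21 (chr17:78049543-78049561), the AS3 site in coding sequence in exon 14 (chr17:78091440-78091466) and the AS2 site in the 3′UTR in exon 21 (chr17:78105534-78105560), positions given for transcript TNRC6C-202. The longest perfect match of these antisense strands to a TNRC6A or TNRC6B transcript was 10 bases.

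The let-7 family is shown because its targets were among the genes that changed most between these groups. These mature microRNAs, from RefSeq on GRCh38.p14, share their seed (capitals).
hsa-let-7a-5p: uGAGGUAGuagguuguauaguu
hsa-let-7b-5p: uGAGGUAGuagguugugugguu
hsa-miR-98-5p: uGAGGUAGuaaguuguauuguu
RefSeq lists 11 mature human microRNAs with this seed. A site is the reverse complement of the seed, CTACCTC, or CTACCTCA for a site of 8 letters. The following 3′UTR stretches, sense strand, end in such a site (capitals).
NR6A1: tgttgacaaagatgaCTACCTCA
IGDCC3: tttggctctcagcacCTACCTCA
ARID3A: gctgcctatctctgtCTACCTCA
HIC2: caggaccccctccccCTACCTCA
IGF2BP3: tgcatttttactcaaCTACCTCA
The stretches lie at chr9:124522310-124522332, chr15:65328450-65328472, chr19:974511-974533, chr22:21450882-21450904 and chr7:23311795-23311817 (GRCh38), in the order printed. NR6A1 and HIC2 are transcription regulators, ARID3A is a DNA-binding protein, IGDCC3 is a cell surface protein of the immunoglobulin superfamily, and IGF2BP3 is an RNA-binding protein of the embryo. A site is a match of letters and not evidence of binding. The 3′UTR of NR6A1 held 5 such sites, that of IGDCC3 4, that of HIC2 4, that of ARID3A 2 and that of IGF2BP3 1. The longest annotated 3′UTR of HMGA2, a let-7 target described below, held none, and its other 3′UTRs were not searched.

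Estimated counts summed to 34772464 to 41745751 reads in the TNRC6AB-/- siTNRC6C libraries and to 38738727 to 42340071 reads in the wild type siTNRC6C libraries. Values are given in CPM, read counts scaled to a common library size, and a gene was called (written as rose, fell, higher or lower) when the adjusted p of edgeR's quasi-likelihood test was under 0.05 and the log2 fold change lay beyond 0.6 in either direction. Of 23135 tested genes, 4487 (19.4%) were higher and 3431 (14.8%) were lower in TNRC6AB-/- siTNRC6C, 34.2% in all. The 3 TNRC6AB-/- libraries did not overlap the 3 wild type libraries for 71.7% of the tested genes. The median log2 fold change over all tested genes was 0.10, and lists below are read against that median and those shares. Of the calls 56.7% were higher. That share was 66.7% with upper-quartile scaling, where the median over all genes was 0.21, and 43.6% when all 24 libraries entered the fit. Reads assigned to retained-intron transcripts made up 4.53%, 4.55% and 4.32% in TNRC6AB-/- siTNRC6C and 3.48%, 3.63% and 3.58% in wild type siTNRC6C, with no overlap. Without these transcripts 4781 genes were higher and 3261 lower. Replicates 3 of both siGL2 groups stood apart from their own replicates. This touches comparisons with siGL2 and also the p-values here, since the 12 transfected libraries shared 1 fit. The fitted spread (biological coefficient of variation) was 0.062 in the 12 and 0.033 in the 6 alone. Fitted alone, the 6 gave 4612 genes higher and 3564 lower. Nothing in the sources used here says that replicates were separate cultures. The p-values thus measure the spread within groups of the 12 libraries, which may be technical. Genes were named by a rule, and those named to complete a count of 5 or fewer, together with HIC2, TRIM71, SAMD9L, GBP1, CA9 and SPARC, were chosen after their values were seen.

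The markers of colon epithelium were mixed. KRT8, a keratin of simple epithelium, had 795, 783 and 808 CPM in TNRC6AB-/- siTNRC6C and 1029, 986 and 1071 CPM in wild type siTNRC6C. KRT19 had 432, 439 and 433 CPM in TNRC6AB-/- siTNRC6C and 430, 406 and 439 CPM in wild type siTNRC6C. The 9 tested of 10 colon epithelium markers summed to 1856 to 1900 CPM in TNRC6AB-/- siTNRC6C and 2341 to 2511 CPM in wild type siTNRC6C. Of these 9, 4 were lower (HNF4A, CDH1, EPCAM and CDX2). CDH17 and VIL1 were below 0.5 CPM in all 6 libraries, and GPA33 had at most 10 reads in any of them. The 3 tested of 8 blood markers summed to 4.10 to 4.48 CPM in TNRC6AB-/- siTNRC6C and 0.89 to 1.44 CPM in wild type siTNRC6C. Among those not tested, CD3E was at 0 in all 6 libraries, and CD14, HBB and SPI1 had at most 5 reads. The difference lay in LYZ (lysozyme), at 3.06, 2.94 and 3.14 CPM in TNRC6AB-/- siTNRC6C and 0.22, 0.16 and 0.13 CPM in wild type siTNRC6C. PTPRC was called higher and HBA1, which has a near-identical copy, lower, at 1.34 CPM or less in each library. The 3 tested of 6 endothelial markers summed to 3.33 to 3.63 CPM in TNRC6AB-/- siTNRC6C and 1.75 to 1.97 CPM in wild type siTNRC6C. VWF (log2 fold change 1.46) and PECAM1 (0.84) were called higher and KDR (-1.10) lower, while CDH5, CLDN5 and TEK had at most 9 reads in a library. The 5 tested of 8 fibroblast markers summed to 55.3 to 58.9 CPM in TNRC6AB-/- siTNRC6C and 16.7 to 18.1 CPM in wild type siTNRC6C. Of these 5, 4 were higher, all of them matrix genes (COL1A1, COL1A2, COL3A1 and DCN). The receptor PDGFRB did not pass (log2 fold change -0.07), and PDGFRA, FAP and LUM had at most 6 reads in a library.

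The targeted genes were checked first. TNRC6A (chr16:24610209-24827632 on GRCh38) was at 78.4, 80.6 and 78.7 CPM in TNRC6AB-/- siTNRC6C and at 142, 149 and 150 CPM in wild type siTNRC6C, a log2 fold change of -0.89 ± 0.05 (SE) with an adjusted p of 3.0e-11 by edgeR. TNRC6B (chr22:40044817-40335808) was at 75.3, 79.2 and 81.6 CPM in TNRC6AB-/- siTNRC6C and at 209, 208 and 200 CPM in wild type siTNRC6C (log2 fold change -1.39 ± 0.05, adjusted p 2.5e-13 by edgeR). Both genes were lower in every TNRC6AB-/- library, and neither was near 0. TNRC6C (chr17:77959240-78108835) was at 20.8, 19.9 and 18.9 CPM in TNRC6AB-/- siTNRC6C and at 19.4, 20.4 and 20.3 CPM in wild type siTNRC6C, and these groups overlapped (log2 fold change -0.01 ± 0.06, adjusted p 0.869 by edgeR). With siGL2 the same gene was at 124, 118 and 113 CPM in TNRC6AB-/- cells and at 52.6, 49.1 and 49.7 CPM in wild type cells (log2 fold change 1.23). With counts rebuilt from TPM and gene length TNRC6C was at 0.52 between the siTNRC6C groups, still under the fold threshold (adjusted p 6.8e-04 by edgeR). The coding TNRC6C transcript ENST00000636222 was at 1.19, 0.914 and 1.05 TPM in TNRC6AB-/- siTNRC6C and 0.769, 0.760 and 0.510 TPM in wild type siTNRC6C, without overlap. The coding ENST00000588061 was also higher without overlap, and the coding ENST00000588549 overlapped. The coding ENST00000588847 went the other way, at 0 TPM in each TNRC6AB-/- siTNRC6C library and 0.283, 0.224 and 0.639 TPM in wild type siTNRC6C. Against siGL2, siTNRC6C lowered TNRC6C by a log2 fold change of -2.57 in TNRC6AB-/- cells and of -1.33 in wild type cells.

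The transcripts of the knocked-out genes were examined in TPM, which corrects for length. The coding TNRC6B transcript ENST00000335727 was at 0.0173, 0.0175 and 0.0130 TPM in TNRC6AB-/- siTNRC6C and at 5.65, 6.09 and 5.44 TPM in wild type siTNRC6C. Another coding TNRC6B transcript, ENST00000301923, was at 3.75, 4.09 and 4.19 TPM in TNRC6AB-/- siTNRC6C and at 0.11, 0.167 and 0.230 TPM in wild type siTNRC6C. The reads left on TNRC6B in the knockout were thus assigned largely to a different annotated coding transcript. The leading coding TNRC6A transcript, ENST00000315183, was at 6.35, 6.65 and 6.55 TPM in TNRC6AB-/- siTNRC6C and at 9.54, 10.6 and 10.3 TPM in wild type siTNRC6C. Its retained-intron transcript ENST00000568806 went the other way, at 5.22, 7.85 and 8.37 TPM in TNRC6AB-/- siTNRC6C and 1.18, 3.17 and 3.31 TPM in wild type siTNRC6C. When gene counts were rebuilt from TPM and gene length, the TNRC6A change was 0.06 and was no longer called (adjusted p 0.617 by edgeR). FAM83F, which overlaps TNRC6B, was at 29.9, 28.3 and 29.4 CPM in TNRC6AB-/- siTNRC6C and 32.2, 31.6 and 34.5 CPM in wild type siTNRC6C, below the fold threshold (log2 fold change -0.17).

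**Figure D1:**
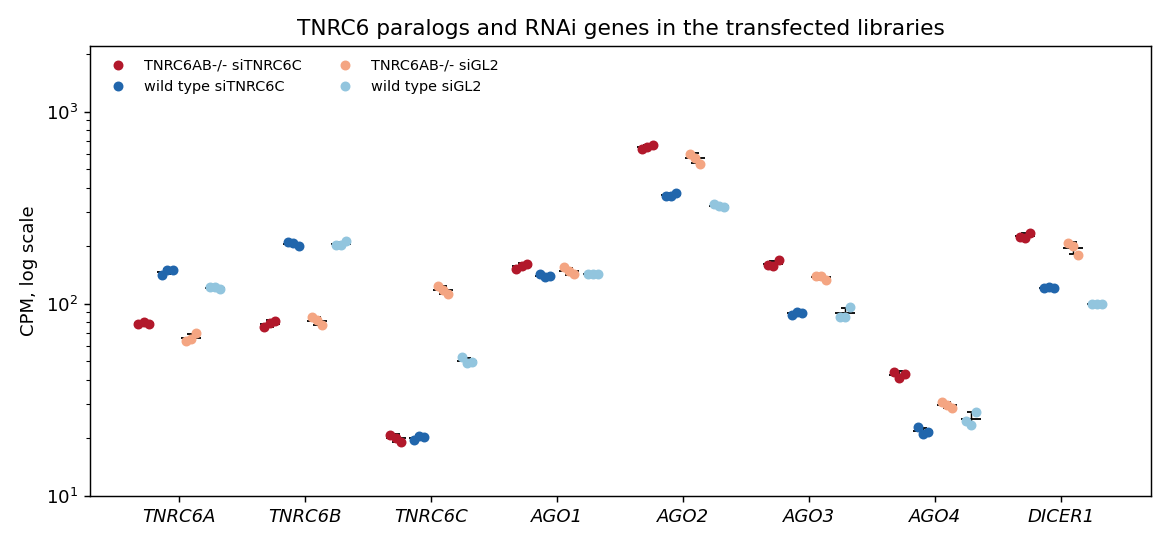
CPM on a log axis of the TNRC6 paralogs, the 4 Argonautes and DICER1 in the 12 transfected libraries; points are libraries and black bars the mean ± SD of 3. TNRC6A and TNRC6B are lower in TNRC6AB-/- cells with either duplex, TNRC6C overlaps between the genotypes at 18.9 to 20.8 CPM with siTNRC6C, and AGO2, AGO3, AGO4 and DICER1 lie higher in TNRC6AB-/- siTNRC6C than in wild type siTNRC6C.

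The mRNAs of proteins that work beside TNRC6 were examined next. Of the 13 genes of the RNAi core, 4 were higher and 2, TNRC6A and TNRC6B themselves, were lower. Without these 2 genes, 4 of 11 were called, all of them higher. Over all tested genes, 34.2% were called in either direction and 19.4% were called higher. AGO2, the Argonaute that can cleave its target, had 641, 652 and 674 CPM in TNRC6AB-/- siTNRC6C and 363, 364 and 377 CPM in wild type siTNRC6C (log2 fold change 0.83 ± 0.05, adjusted p 3.0e-10 by edgeR). AGO3 (0.86), AGO4 (0.98) and DICER1 (0.89), the nuclease that makes mature microRNAs and itself a let-7 target, rose by like amounts. AGO1 had 151, 157 and 162 CPM in TNRC6AB-/- siTNRC6C and 143, 138 and 139 CPM in wild type siTNRC6C, a log2 fold change of 0.16 that lies under the threshold. The microprocessor genes DROSHA (-0.17) and DGCR8 (0.21), the export factor XPO5 (-0.33) and the Dicer partner TARBP2 (0.07) did not pass. With counts rebuilt from TPM and length, AGO2 was at 0.48 and was not called.

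Few genes of the deadenylation and decapping machinery downstream of TNRC6 were called. Of 17 deadenylation genes, 3 were lower, close to the share of all genes, with a median of -0.16. CNOT6L, a catalytic subunit of CCR4-NOT, had 32.1, 33.9 and 34.3 CPM in TNRC6AB-/- siTNRC6C and 65.3, 66.2 and 64.5 CPM in wild type siTNRC6C (-0.97). CNOT3, a regulatory subunit (-0.89), and PABPC1, the cytoplasmic poly(A)-binding protein (-0.90), also fell. The scaffold CNOT1 was at -0.39, and PAN2 and PAN3, the other deadenylase, at -0.08 and -0.14. Of 16 decapping and P body genes, the decapping enzyme DCP2 rose (0.81) and ZFP36L2, which binds AU-rich mRNAs, fell (-1.15), the 2 calls of that list.

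Genes that are textbook targets of microRNAs were higher more often than lower. Of 28 tested let-7 targets, 13 were higher and 3 lower, with a median of 0.51 beside 0.10 over all tested genes. NR6A1 had 238, 243 and 244 CPM in TNRC6AB-/- siTNRC6C and 16.3, 16.9 and 17.3 CPM in wild type siTNRC6C. The groups were far apart for this gene, with a log2 fold change of 3.84 ± 0.06 and an adjusted p of 4.6e-18 by edgeR. TRIM71, an RNA-binding protein of stem cells, was low in both groups, at 0.82, 1.10 and 0.72 CPM in TNRC6AB-/- siTNRC6C and 0.11, 0.08 and 0.10 CPM in wild type siTNRC6C (3.15). ARID3A had 145, 154 and 160 CPM in TNRC6AB-/- siTNRC6C and 26.2, 25.7 and 26.8 CPM in wild type siTNRC6C (2.55 ± 0.06, adjusted p 7.7e-16 by edgeR). HMGA2, a chromatin protein of the embryo, had 1539, 1536 and 1604 CPM in TNRC6AB-/- siTNRC6C and 344, 362 and 377 CPM in wild type siTNRC6C (2.11 ± 0.06). IGF2BP3 went the other way although its 3′UTR holds a site, at 69.9, 69.6 and 70.4 CPM in TNRC6AB-/- siTNRC6C and 214, 218 and 219 CPM in wild type siTNRC6C (-1.63 ± 0.04, adjusted p 3.7e-15 by edgeR). GATM (-1.38) and HMGA1 (-0.61) were the other falls. NRAS (0.07) and RRM2 (-0.11) did not pass. HIC2, chosen after its values were seen for the sequence above, had 48.2, 50.0 and 48.3 CPM in TNRC6AB-/- siTNRC6C and 17.5, 17.1 and 17.4 CPM in wild type siTNRC6C (1.5).

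The other microRNA target lists are read beside the 19.4% of all tested genes that were higher. For miR-200, 7 of 19 tested targets were higher (median 0.56), with ZEB1, a repressor of epithelial genes, at 39.7, 38.2 and 42.1 CPM in TNRC6AB-/- siTNRC6C and 10.5, 11.7 and 11.5 CPM in wild type siTNRC6C (1.83 ± 0.06, adjusted p 8.5e-14 by edgeR). ZEB2 (1.10), MARCKS (0.76), the phosphatase PPM1F (1.0), the RNA-binding protein QKI (1.08), fibronectin FN1 (1.13) and laminin LAMC1 (0.85) rose too. For miR-17, 5 of 19 were higher and 1 lower (median 0.27), not far from the share of all genes, with cyclin D1 (CCND1) at 2967, 3006 and 3173 CPM in TNRC6AB-/- siTNRC6C and 607, 593 and 647 CPM in wild type siTNRC6C (2.31 ± 0.08). CDKN1A (1.79), BCL2L11 (1.39), ZBTB4 (1.26) and BMPR2 (0.88) were the other rises and VEGFA (-0.65) the fall. For miR-21, 6 of 15 were higher and 2 lower (median 0.53), and this list held large changes in both directions. TGFBI, an extracellular matrix protein, had 6.59, 6.37 and 6.72 CPM in TNRC6AB-/- siTNRC6C and 0.25, 0.16 and 0.15 CPM in wild type siTNRC6C. TIMP3, an inhibitor of metalloproteinases, had 0.08, 0.13 and 0.05 CPM in TNRC6AB-/- siTNRC6C and 5.16, 4.33 and 4.72 CPM in wild type siTNRC6C, 11 against 539 reads. NFIB (-1.06) was the other fall.

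Seed sites were then counted in the longest annotated 3′UTR of 14684 tested genes, with no test. The let-7 word CTACCTC, searched on the sense strand, stood in 1663 of them, 11.3%. Genes with the word had a median log2 fold change of 0.09 and those without it of -0.08, a difference of 0.18, and 19.7% against 13.9% were higher while 11.1% against 18.5% were lower. With siGL2 the same difference was 0.08, and in untransfected cells it was 0.02. The 3′UTRs with the word were longer, at a median of 3031 against 1224 bases, and length itself went with the fold change. In 5 classes of about equal size, from the shortest to the longest 3′UTRs, the median was -0.23, -0.16, -0.06, 0.01 and 0.12, the share of genes called higher was 11.7%, 11.7%, 13%, 16.5% and 20%, and the share called lower was 25%, 21%, 17.3%, 14.4% and 10.3%. Within those classes, in the same order, the let-7 difference was 0.13, 0.05, 0.10, 0.08 and 0.07, positive in all 5 and smaller than the undivided value. Words of 7 other microRNA families gave undivided differences of 0.13 to 0.20, and words of the 6 strands of siTNRC6C gave 0.10 to 0.19. Between the siGL2 groups, which did not receive siTNRC6C, words of the same 6 strands gave 0.05 to 0.08, beside 0.08 for let-7. The strands of siGL2, which the siTNRC6C groups did not receive, gave -0.01 and -0.01 between those groups. Their words stood in 209 and 36 genes, against 1093 to 2780 for the siTNRC6C words, so they are not a matched control. Whether the duplexes acted through their seeds was not tested. As with let-7, the difference between the siTNRC6C groups was positive in all 5 classes for miR-17, miR-92/25, miR-34 and the siTNRC6C strand SS2. Of the microRNA families, miR-92/25 had the largest undivided difference (0.20). For miR-200b, miR-200c and miR-429, which share a seed, for miR-141/200a, miR-21, miR-30 and several of the siTNRC6C strands the sign turned in at least 1 of the length classes.

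The 12 largest rises and 12 largest falls, among genes of at least 5 CPM, crossed many functions. MYBPH, a myosin-binding protein, had 373, 538 and 459 reads in TNRC6AB-/- siTNRC6C and 1, 0 and 1 in wild type siTNRC6C, a ratio of 708 with a counting interval of 196 to 5855. ANKRD1, an ankyrin repeat protein of muscle, had 56.0, 55.1 and 56.4 CPM in TNRC6AB-/- siTNRC6C and 0.55, 0.37 and 0.58 CPM in wild type siTNRC6C (log2 fold change 6.79 ± 0.16). SLC2A3, the glucose transporter GLUT3, had 896, 883 and 953 CPM in TNRC6AB-/- siTNRC6C and 23.7, 21.5 and 25.4 CPM in wild type siTNRC6C (5.27 ± 0.07, adjusted p 3.0e-18 by edgeR). It was the most abundant of the 12 in TNRC6AB-/- cells. The microtubule-associated kinase DCLK1 (4.94), IGDCC3 (4.40), the keratin-associated KRTAP2-3 (4.35, with near-identical neighbours), type III collagen COL3A1 (4.30), the ephrin receptor EPHA4 (3.85), NR6A1 (3.84), the carboxypeptidase CPA4 (3.66), the kainate receptor subunit GRIK2 (3.50) and the glycosyltransferase MGAT4C (3.49) made up the rest. All 12 were also called higher in TNRC6AB-/- cells with siGL2, at 1.47 (IGDCC3) to 6.51 (MYBPH), and 11 of the 12 in untransfected cells, where DCLK1 was at 0.38. Over all tested genes the shares called higher were 8.63% with siGL2 and 8.44% in untransfected cells. The 12 were picked for the largest change between the same lines.

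The falls were as large. ANXA10, an annexin, had 0, 0 and 3 reads in TNRC6AB-/- siTNRC6C and 951, 916 and 1009 in wild type siTNRC6C, 927-fold lower with a counting interval of 317 to 4498. NRIP1, a corepressor of nuclear receptors, had 0.40, 0.37 and 0.46 CPM in TNRC6AB-/- siTNRC6C and 96.9, 102 and 104 CPM in wild type siTNRC6C (-7.92 ± 0.10, adjusted p 1.5e-18 by edgeR). CPVL, a carboxypeptidase of myeloid cells, had 7, 6 and 1 reads in TNRC6AB-/- siTNRC6C and 442, 444 and 473 in wild type siTNRC6C. These 3 genes were at or near 0 in every TNRC6AB-/- siTNRC6C library. Next came keratin 7 (KRT7, -4.75), DPYSL3 (-4.56), the calcium-binding S100A14 (-4.43), the hyaluronan-binding CEMIP (-4.32), ISPD (-3.94), titin (TTN, -3.87), the homeobox gene MKX (-3.80), the apical sorting protein MAL2 (-3.65) and the hyaluronan synthase HAS3 (-3.64). All 12 were also called lower in TNRC6AB-/- cells with siGL2 and in untransfected cells, where the shares over all tested genes were 7.86% and 6.89%. These 12 were likewise picked for the largest change between the same lines.

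**Figure D2:**
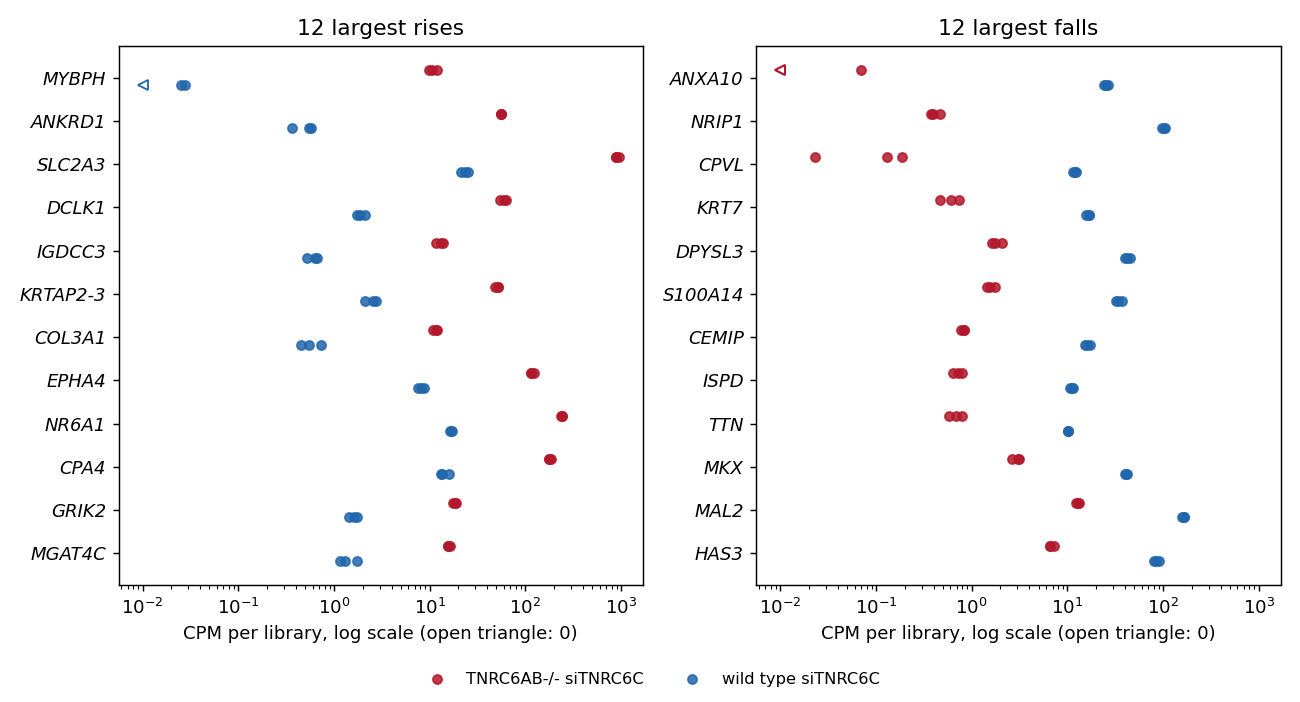
CPM per library on a log axis for the 12 genes with the largest rise and the 12 with the largest fall, TNRC6AB-/- siTNRC6C above wild type siTNRC6C in each row; open triangles stand for 0 and are drawn at 0.01 CPM. No gene shows overlap between the 3 libraries of each group, as the rule for choosing them required.

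Epithelial genes were lower more often than higher. Of 37 tested epithelial genes, 20 were lower and 1 (OVOL2, 0.88) higher, with a median of -0.64. E-cadherin (CDH1), the adhesion molecule that joins epithelial cells, had 24.1, 24.2 and 25.7 CPM in TNRC6AB-/- siTNRC6C and 79.7, 78.0 and 76.6 CPM in wild type siTNRC6C (-1.66 ± 0.05, adjusted p 1.8e-14 by edgeR). The transcription factors ELF3 and GRHL2, which maintain epithelial identity, fell by 2.92 and 1.97 on the log2 scale, and MAL2 had 12.4, 13.1 and 13.2 CPM in TNRC6AB-/- siTNRC6C against 166, 164 and 158 CPM in wild type siTNRC6C. The keratins KRT8 (-0.37), KRT18 (-0.36) and KRT19 (0.03) did not pass, nor did the junction genes DSP (-0.20), CLDN4 (0.05) and TJP1 (0.36). Of 7 tested EMT (epithelial to mesenchymal transition) factors, ZEB1, ZEB2 and SNAI2 rose, SNAI3 fell, and SNAI1 (-0.31) and TWIST1 (-0.21) did not pass. SNAI3 was at -1.10, and SNAI2 rested on 30, 30 and 19 reads in TNRC6AB-/- siTNRC6C and 11, 10 and 9 in wild type siTNRC6C.

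Mesenchymal, matrix and adhesion genes were higher more often than lower. Of 26 mesenchymal genes, 14 were higher and 2 (CD44, -1.0, and TPM2, -0.93) lower, with a median of 0.76. Vimentin (VIM), an intermediate filament of mesenchymal cells, had 53.3, 53.3 and 53.2 CPM in TNRC6AB-/- siTNRC6C and 7.01, 7.07 and 6.08 CPM in wild type siTNRC6C (2.99 ± 0.07). SPARC, a matrix protein, had 7.42, 8.46 and 9.15 CPM in TNRC6AB-/- siTNRC6C and 0.75, 0.78 and 0.66 CPM in wild type siTNRC6C (3.52). Of 22 collagen genes, 8 were higher and 3 lower, with COL9A3 (1.34) and COL6A1 (1.0) next to COL3A1 among the rises and the collagen-modifying enzymes P4HA1 (-1.63) and PLOD2 (-0.66) and COL27A1 (-0.92) as the falls. Of 21 integrins, 9 were higher (median 0.57), including ITGB4 (1.22), ITGB5 (1.10), ITGA6 (0.85) and ITGB8 (0.76).

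Targets of YAP and TEAD, the transcription factors at the end of the Hippo pathway, showed the highest median of any list of more than 10 genes. Of 20 tested, 14 were higher and 1 (F3, -1.15) lower, with a median of 0.96 here, 0.69 with siGL2 and 0.51 in untransfected cells. CTGF, a secreted matrix protein, had 45.9, 47.1 and 49.5 CPM in TNRC6AB-/- siTNRC6C and 4.08, 4.46 and 4.72 CPM in wild type siTNRC6C (3.42 ± 0.07, adjusted p 2.5e-16 by edgeR). CYR61 (1.69), the receptor kinase AXL (1.97) and ANKRD1 rose as well. TEAD4 (-0.21) and TEAD3 (0.23) did not pass.

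Many interferon-stimulated genes rose. Of 39 tested effectors, 22 were higher and 3, CMPK2 (-1.24), HERC6 (-0.76) and IFIT5 (-0.63), lower (median 0.79). The interferon genes IFNB1, IFNL1, IFNL2 and IFNL3 did not pass the filter on low counts. IFIT2, which binds viral RNA, had 22.3, 22.2 and 24.6 CPM in TNRC6AB-/- siTNRC6C and 3.94, 4.23 and 3.38 CPM in wild type siTNRC6C (2.58 ± 0.09, adjusted p 1.7e-13 by edgeR). IFI6 (1.67), SAMD9 (1.32) and PARP14 (0.93) rose, while the ubiquitin-like ISG15 (0.16), OAS3 (-0.12) and IFITM3 (-0.50) did not pass. The largest fitted rises of the list lay at low counts: SAMD9L had 0.90, 1.52 and 1.36 CPM in TNRC6AB-/- siTNRC6C and 0, 0.03 and 0.05 CPM in wild type siTNRC6C, and GBP1 0.35, 0.24 and 0.44 CPM in TNRC6AB-/- siTNRC6C and 0, 0 and 0.05 CPM in wild type siTNRC6C. Of 26 signalling genes and RNA sensors, 6 were higher and 20 were not called, not far from the 19.4% of all tested genes that were higher. The 6 included the cytosolic RNA sensors DDX58 (RIG-I, 1.64) and IFIH1 (MDA5, 0.79), IRF9 (1.08) and the inhibitor SOCS1 (2.64). With siGL2, 22 of the 39 effectors were higher (median 0.72), beside 8.63% of all tested genes. In untransfected cells the effector list stood higher, with 33 of 39 called higher and a median of 1.95, beside 8.44% of all tested genes. The difference from untransfected cells was not tested.

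The class I antigen presentation genes did not share that rise. Of 17, 2 were higher, the peptide trimming enzymes ERAP1 (0.83) and ERAP2 (0.95), and 4 were lower, with HLA-E at 39.8, 39.4 and 40.1 CPM in TNRC6AB-/- siTNRC6C and 101, 90.9 and 90.5 CPM in wild type siTNRC6C (-1.25), HLA-F at -1.09, PDIA3 at -0.92 and the proteasome subunit PSMB10 at -0.94. HLA-B (0.12) and B2M (-0.23) did not pass, and HLA genes share part of their sequences. In untransfected cells 13 of the 17 were higher, with a median of 1.07 against -0.15 here, although the difference between these comparisons was not tested.

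**Figure D3:**
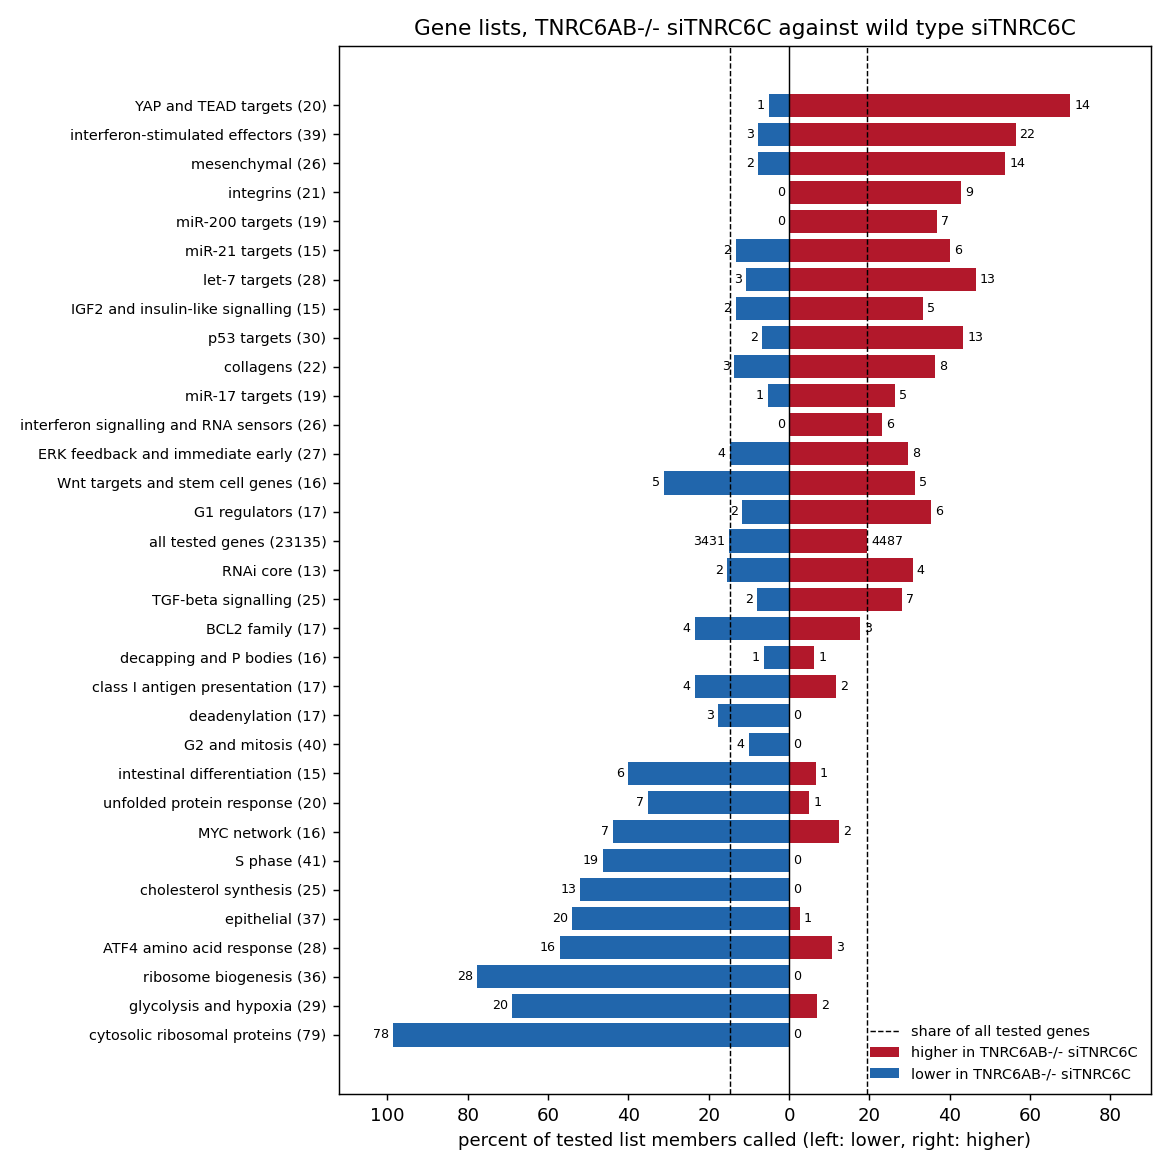
Percent of the tested members of each list called lower (left, blue) and higher (right, red) in TNRC6AB-/- siTNRC6C against wild type siTNRC6C, with the number tested in brackets, the number called at each bar, and lists ordered by their median log2 fold change. Dashed lines mark the shares over all tested genes, 14.8% lower and 19.4% higher; ribosomal proteins (78 of 79 lower) stand at the bottom and YAP and TEAD targets (14 of 20 higher) at the top.

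The genes of the cytosolic ribosome fell together. Of 79 ribosomal protein genes, 78 were lower, with a median of -1.06, and RPL7A was the 1 not called (-0.59). The 79 summed to 27850, 27650 and 29290 CPM in TNRC6AB-/- siTNRC6C and 60790, 59350 and 59520 CPM in wild type siTNRC6C. RPL9 had 295, 290 and 313 CPM in TNRC6AB-/- siTNRC6C and 837, 842 and 820 CPM in wild type siTNRC6C (-1.48 ± 0.06, adjusted p 1.4e-12 by edgeR), with RPSA (-1.38), RPL36A (-1.30) and RPL34 (-1.27) close behind. The list was lower in the other comparisons too, with 56 of 79 called with siGL2 (median -0.67) and 53 of 79 in untransfected cells (median -0.71). Ribosomal protein genes have many processed pseudogenes, copies of their mRNAs to which reads can be assigned in their place. Processed pseudogenes as a class went the other way, with 237 of 843 higher, 101 lower and a median of 0.47, and their part in the ribosomal protein result was not tested.

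MYC and most of the genes that build the ribosome were lower as well. MYC, a transcription factor that drives growth, had 78.4, 74.1 and 80.6 CPM in TNRC6AB-/- siTNRC6C and 253, 248 and 265 CPM in wild type siTNRC6C (-1.72 ± 0.07, adjusted p 8.1e-13 by edgeR). In the MYC network 7 of 16 genes were lower and 2 higher, the 2 being MXD1 (1.39) and MXD4 (0.92), which compete with MYC for its partner MAX. Of 36 ribosome biogenesis genes, 28 were lower (median -0.83). FBL, the methyltransferase that modifies ribosomal RNA, had 63.7, 62.9 and 69.4 CPM in TNRC6AB-/- siTNRC6C and 218, 216 and 216 CPM in wild type siTNRC6C (-1.73 ± 0.09). RRP9 (-1.39), the polymerase subunit POLR1C (-1.21) and UTP4 (-1.17) fell, and POLR1A (-0.13) and UTP20 (-0.37) did not pass. With siGL2 the same list had 2 of 36 lower and a median of -0.09, and in untransfected cells 26 of 36 lower and a median of -0.73.

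Among cell cycle genes, 19 of 41 S phase genes were lower (median -0.59). The replicative helicase subunit MCM4 had 154, 152 and 159 CPM in TNRC6AB-/- siTNRC6C and 380, 384 and 377 CPM in wild type siTNRC6C (-1.29 ± 0.07, adjusted p 4.4e-11 by edgeR), and MCM3 (-1.02), the clamp loader RFC5 (-1.25) and E2F8 (-1.11) fell. Of 40 genes of G2 and mitosis, 4 were lower, CDC20 (-1.06), HMMR (-0.92), MAD2L1 (-0.77) and DEPDC1 (-0.64), a share of lower calls under the 14.8% of all genes, with a median of -0.24. TOP2A (0.19), CDK1 (-0.26) and MKI67 (-0.18) did not pass. Among 17 G1 regulators, 6 were higher and 2 lower (CCNE2, -0.70, and CDK4, -0.68), and the rises held both drivers and brakes of the cycle. CDK6, which with cyclin D1 opens the cycle, had 1599, 1591 and 1671 CPM in TNRC6AB-/- siTNRC6C and 394, 383 and 413 CPM in wild type siTNRC6C (2.03), and the inhibitors CDKN1A (1.79) and CDKN2B (1.48) rose beside it.

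Targets of p53, the transcription factor of the damage response, rose more often than they fell. Of 30 p53 targets, 13 were higher and 2 lower (median 0.37). CDKN1A (p21) had 516, 549 and 543 CPM in TNRC6AB-/- siTNRC6C and 160, 153 and 152 CPM in wild type siTNRC6C, and TP53INP1 (2.61), BTG2 (1.60) and PLK2 (1.27) rose. The falls were GDF15 (-0.79) and SPATA18, a gene of mitochondrial quality control, at 0, 0 and 0 CPM in TNRC6AB-/- siTNRC6C and 0.91, 0.55 and 0.71 CPM in wild type siTNRC6C. MDM2, the p53 ligase, was just under the fold threshold at 0.58, and BAX (0.02) and BBC3 (-0.01) did not pass. Of 17 BCL2 family genes, the death-promoting BMF (1.72), BCL2L11 (1.39) and PMAIP1 (1.19) rose, 4 fell (BNIP3 at -1.82, BIK at -0.78, HRK at -0.74 and BID at -0.72), and BCL2 (0.04), BCL2L1 (0.42) and MCL1 (0.48) did not pass.

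Many metabolic genes fell. Of 29 genes of glycolysis and the response to low oxygen, 20 were lower and 2 higher (median -0.94). Hexokinase 2 (HK2) had 18.2, 17.6 and 18.9 CPM in TNRC6AB-/- siTNRC6C and 108, 105 and 113 CPM in wild type siTNRC6C (-2.58 ± 0.06, adjusted p 5.0e-16 by edgeR). ALDOC (-2.70) and GPI (-1.40) fell, PKM (0.02) and SLC2A1 (0.33) did not pass, and SLC2A3 (5.27) and the hormone gene ADM (0.97) rose. CA9, a carbonic anhydrase induced by low oxygen, had 0.05, 0 and 0 CPM in TNRC6AB-/- siTNRC6C and 1.94, 1.67 and 1.82 CPM in wild type siTNRC6C. LDHA had 472, 460 and 506 CPM in TNRC6AB-/- siTNRC6C and 1179, 1174 and 1143 CPM in wild type siTNRC6C (-1.28). GAPDH, often used as a reference for quantitative PCR, had 1076, 1073 and 1129 CPM in TNRC6AB-/- siTNRC6C and 1887, 1835 and 1870 CPM in wild type siTNRC6C (-0.77), and HPRT1 had 31.9, 31.9 and 33.9 CPM in TNRC6AB-/- siTNRC6C and 77.1, 82.8 and 75.0 CPM in wild type siTNRC6C (-1.27). Among 5 such references TBP was level (20.4, 19.9 and 20.4 CPM in TNRC6AB-/- siTNRC6C, 20.4, 20.6 and 19.9 CPM in wild type siTNRC6C).

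Of 25 genes of cholesterol synthesis, 13 were lower (median -0.60). DHCR7 (-1.17), SQLE (-1.12) and MVD (-1.0) fell, and HMGCS1 (-0.14) did not pass. With siGL2 the same list had a median of -0.33, and in untransfected cells of 0.36. The difference from untransfected cells was not tested. Of 28 tested genes of the ATF4 response to amino acid shortage, 16 were lower and 3 higher (median -0.68), with DDIT4 at 12.1, 12.1 and 12.7 CPM in TNRC6AB-/- siTNRC6C and 55.5, 59.0 and 56.8 CPM in wild type siTNRC6C (-2.22), SHMT2 at -1.27 and ALDH18A1 at -1.18, while SESN2 (1.06), NUPR1 (0.64) and ATF3 (0.60) rose and ATF4 itself was at -0.58. The list held 1 higher gene with DESeq2 and 1 with counts rebuilt from TPM and length, and its higher calls were lost with all 24 libraries in a single fit. Of 20 genes of the unfolded protein response, 7 were lower and 1, DNAJB9 (0.74), higher, the falls including SDF2L1 (-1.41), PDIA4 (-1.11), PDIA6 (-0.93) and HERPUD1 (-0.67).

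Signalling lists were divided. Of 27 ERK feedback and immediate early genes, 8 were higher and 4 lower (FOS, -1.64, and FOSB, -0.76, besides those below). IL17RD, a feedback inhibitor of FGF signalling, had 226, 233 and 247 CPM in TNRC6AB-/- siTNRC6C and 44.0, 44.6 and 41.4 CPM in wild type siTNRC6C (2.44), and the feedback gene SPRY4 (1.45) rose, whereas JUNB (-1.57) and PHLDA1 (-1.64) fell. Of 25 TGF-beta genes 7 were higher and 2 lower, with the inhibitors SMAD7 (2.08) and SKIL (1.46) and the receptor BMPR2 (0.88) among the rises and the targets ID2 (-2.57) and ID3 (-0.72) as the falls. Of 16 Wnt targets and stem cell genes 5 rose, SP5 (1.23), SOX9 (1.13), SOX4 (1.11), AXIN2 (0.96) and NKD1 (0.69), and 5 fell, DKK1 (-2.03), CD44 (-1.0), EPHB2 (-0.84), EPHB3 (-0.84) and PROM1. PROM1 (CD133) had 3.03, 2.97 and 2.45 CPM in TNRC6AB-/- siTNRC6C and 30.3, 30.1 and 31.1 CPM in wild type siTNRC6C (-3.44). Of 15 genes around IGF2 and insulin, 5 were higher, IGF2 (1.49), IRS2 (1.45), IGF1R (1.06), IGF2R (1.02) and IGF2BP2 (0.66), and 2 lower, IGFBP3 (-3.15) and IGF2BP3. Of 15 intestinal differentiation genes 6 were lower, with ANXA10, HNF4A (-2.94) and CA2 (-1.16), and 1, CEACAM1 (0.91), was higher.

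The same genotypes were compared with siGL2 and without transfection, in libraries that the siTNRC6C comparison does not use, although all comparisons share the lines. With siGL2, 1996 genes (8.63%) were higher and 1819 (7.86%) lower, 16.5% in all. Across 23135 genes the fold changes with siTNRC6C and siGL2 correlated at Pearson 0.75 and Spearman 0.69, a description over genes, which are not independent. Of the genes higher with siTNRC6C, 1440 were also higher with siGL2, 32.1% of the siTNRC6C list and 72.1% of the siGL2 list. Of the lower genes 1387 were shared, 40.4% and 76.3% of the lists in the same order, and 10 and 13 genes were called in opposite directions. In untransfected cells, 1935 of 22925 tested genes (8.44%) were higher and 1580 (6.89%) lower, 15.3% in all. Over 22239 genes tested in both, the fold changes of the siTNRC6C and untransfected comparisons correlated at Pearson 0.43 and Spearman 0.29. Called in the same direction in all 3 comparisons were 641 higher and 580 lower genes. The untransfected libraries varied more, with a biological coefficient of variation of 0.20 against 0.06 in the transfected libraries.

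**Figure D4:**
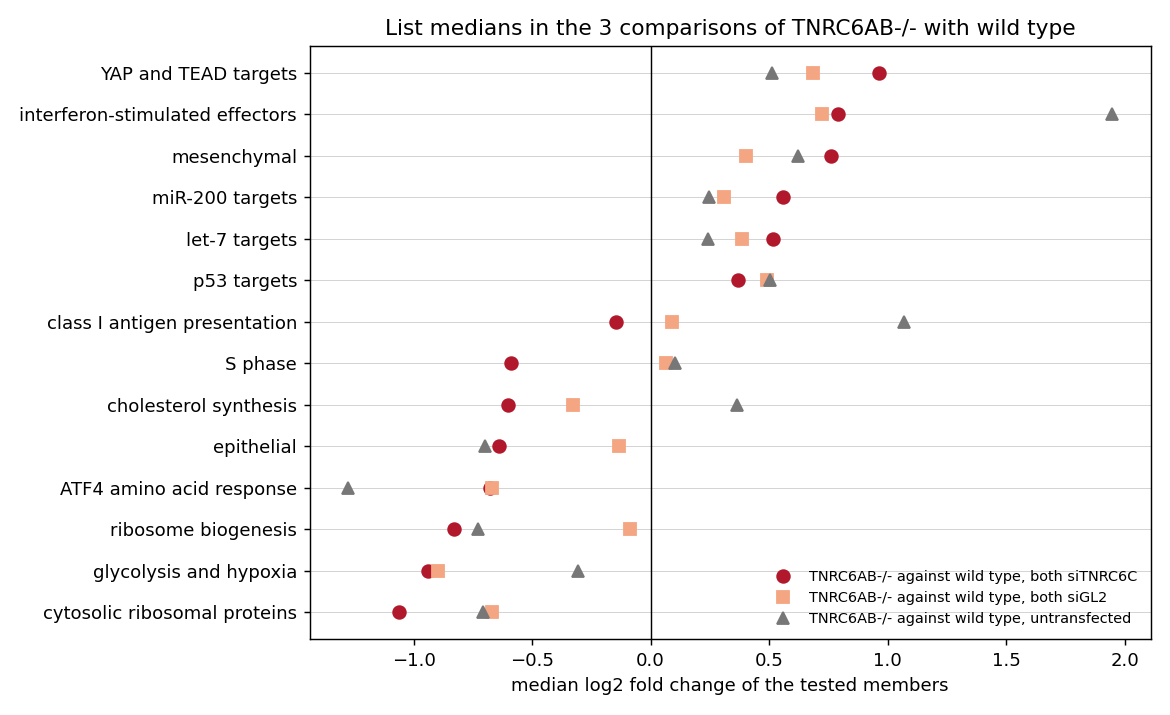
Median log2 fold change of the tested members of 14 lists in 3 comparisons of TNRC6AB-/- with wild type cells: both with siTNRC6C (circles), both with siGL2 (squares) and untransfected (triangles). Ribosome biogenesis, S phase and epithelial lists lie lower with siTNRC6C (-0.83, -0.59 and -0.64) than with siGL2 (-0.09, 0.06 and -0.13), and the class I and interferon-stimulated lists lie highest in untransfected cells.

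Where the genotype effect differed between the duplexes was tested directly, as the effect under siTNRC6C minus the effect under siGL2. By edgeR 844 genes (3.65%) had a higher and 1179 (5.1%) a lower effect under siTNRC6C, 8.74% in all. Within a genotype, siTNRC6C against siGL2 called 1858 genes in TNRC6AB-/- cells (8.03%, with 1008, 4.36%, higher and 850, 3.67%, lower) and 672 genes in wild type cells (2.9%, with 190, 0.821%, higher and 482, 2.08%, lower). The counts for the difference moved with the scaling, to 1346 and 590 with upper-quartile scaling. SLC1A3, a glutamate transporter, had the largest negative difference among genes of at least 5 CPM: 13.0, 13.0 and 11.6 CPM in TNRC6AB-/- siTNRC6C against 45.6, 43.6 and 45.3 CPM in wild type siTNRC6C, but 57.7, 54.5 and 53.1 CPM in TNRC6AB-/- siGL2 against 16.5, 17.0 and 15.8 CPM in wild type siGL2. The order of the genotypes was thus opposite with the duplexes, for a difference of -3.59 ± 0.08 (adjusted p 2.0e-14 by edgeR). TNFSF18, a ligand of the TNF family, did the same (-1.44 with siTNRC6C and 1.60 with siGL2, difference -3.04). KRT7 (difference -2.50), CEMIP (-2.30), TGFB2 (-2.28) and SUSD2 (-2.01) followed. Against siGL2, siTNRC6C lowered all 6 of these genes in TNRC6AB-/- cells, with log2 fold changes of -0.72 (KRT7) to -2.14 (SLC1A3), and raised all 6 in wild type cells, with 0.92 (SUSD2) to 1.78 (KRT7).

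Large positive differences among genes of at least 5 CPM lay in SLC2A3 (2.33), NR6A1 (2.19), LTBP2 (1.82), ANKRD1 (1.77) and DOCK4 (1.61), and IGDCC3, at lower levels, was at 2.93. NR6A1 had 56.2, 54.7 and 52.0 CPM in TNRC6AB-/- siGL2 and 16.7, 16.3 and 18.8 CPM in wild type siGL2, so siTNRC6C raised it in TNRC6AB-/- cells (2.15) and left it at -0.03 in wild type cells. IGDCC3 had 1.97, 1.80 and 1.37 CPM in TNRC6AB-/- siGL2 and 0.45, 0.56 and 0.88 CPM in wild type siGL2, with a change under siTNRC6C of 2.89 in TNRC6AB-/- cells and -0.04 in wild type cells. SNAI2 also differed (2.53 ± 0.54), from 1.24 with siTNRC6C and -1.29 with siGL2, on few reads. Of 28 let-7 targets 6 had a higher effect under siTNRC6C and 1 a lower one, where the shares over all tested genes were 3.65% and 5.1%. The median difference of that list was 0.05, with 15 genes positive and 13 negative.

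The lists held differences of both signs. Of 36 ribosome biogenesis genes 30 had a lower effect (median difference -0.77), of 41 S phase genes 22 (-0.64), and of 37 epithelial genes 15 (-0.44), where the share over all tested genes was 5.1%. The list counts fell to 20, 13 and 10 with upper-quartile scaling, and to 23, 14 and 13 without replicate 3 of both siGL2 groups, an alternative added after the data were seen. With all 24 libraries in a single fit they were 22, 1 and 2. RRP9 had 14.9, 14.1 and 15.5 CPM in TNRC6AB-/- siTNRC6C and 37.8, 36.7 and 42.4 CPM in wild type siTNRC6C, and 22.4, 22.3 and 21.5 CPM in TNRC6AB-/- siGL2 and 29.7, 30.2 and 25.5 CPM in wild type siGL2 (difference -1.02). The 41 S phase genes summed to 3313 to 3443 CPM in TNRC6AB-/- siTNRC6C and 5154 to 5183 CPM in wild type siTNRC6C, and to 4013 to 4590 CPM in TNRC6AB-/- siGL2 and 3859 to 4485 CPM in wild type siGL2. The siTNRC6C groups thus lay outside the siGL2 range on opposite sides. On the other side 9 of 27 ERK feedback and immediate early genes had a higher effect under siTNRC6C (median difference 0.24), where the share over all tested genes was 3.65%. So did 6 of 26 mesenchymal genes with 1 lower (0.36), 5 of 15 miR-21 targets with 1 lower (0.25), 4 of 19 miR-200 targets with 1 lower (0.23) and 4 of 20 YAP and TEAD targets with 1 lower (0.32). With all 24 libraries in a single fit these higher counts were 4, 3, 2, 2 and 1. The ATF4 and glycolysis lists had median differences of 0.02 and -0.04.

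Splicing was read from transcripts that carry both primer sites of the study's gel assays, as the share of their TPM that belongs to each predicted product. EPB41L2, a membrane skeleton protein, was chosen to show the primers because it had the largest shift.
EPB41L2 forward: agcattgccgtggtacaaga
EPB41L2 reverse: tcgtctttcccaacctctgc
The 149 base product, the shortest, made up 21.3%, 20.6% and 22.9% in TNRC6AB-/- siTNRC6C and 57.9%, 61.7% and 60.6% in wild type siTNRC6C. The 359 base product made up 67.7%, 65.7% and 67.9% in TNRC6AB-/- siTNRC6C and 35.2%, 32.2% and 33.4% in wild type siTNRC6C, and the 515 base product averaged 11.3% in TNRC6AB-/- siTNRC6C and 6.31% in wild type siTNRC6C. The groups did not overlap for any of these products (exact permutation test, two-sided, p 0.1, the smallest that 3 against 3 libraries can give). The whole gene was at like levels (179, 172 and 183 CPM in TNRC6AB-/- siTNRC6C, 178, 182 and 171 CPM in wild type siTNRC6C, 0.01). With siGL2 the 149 base product made up 32.8%, 28.0% and 27.8% in TNRC6AB-/- cells and 67.1%, 62.3% and 67.3% in wild type cells.

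For FKBP14, a protein folding enzyme of the endoplasmic reticulum, the 222 base product made up 87.4%, 89.2% and 84.2% in TNRC6AB-/- siTNRC6C and 62.4%, 67.3% and 69.9% in wild type siTNRC6C (exact permutation p 0.1). For the kinesin KIF21A the 132 base product made up 42.2% ± 1.55 in TNRC6AB-/- siTNRC6C and 33.4% ± 2.19 in wild type siTNRC6C (SD, n = 3 each, exact permutation p 0.1). TBC1D5 (28.9% ± 7.03 against 16.5% ± 4.45 for the 214 base product) and PHLDB1 (86.3% ± 1.15 against 80.9% ± 0.67 for the 142 base product) also did not overlap, with TNRC6AB-/- siTNRC6C set against wild type siTNRC6C (SD, n = 3 each, exact permutation p 0.1 each). With protein-coding transcripts only, the difference was 13.4 points in place of 8.78 for KIF21A and 9.18 in place of 5.37 for PHLDB1. APIP (44.7% against 35.1% for the 91 base product, exact permutation p 0.2), RUBCN (19.7% against 16.2% for the 193 base product, 0.3) and PPIP5K2 (32.0% against 31.8% for the 214 base product, 0.9) overlapped between TNRC6AB-/- siTNRC6C and wild type siTNRC6C. Over these 8 genes no p can fall under 0.1, so none passes a threshold of 0.05. At the level of the whole gene, APIP (-0.72) and DEPDC1 (-0.64) were called lower, FKBP14 was at -0.54, and TBC1D5 (-0.08), KIF21A (-0.07), PPIP5K2 (-0.10), PHLDB1 (0.38) and RUBCN (0.41) did not pass.

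**Figure D5:**
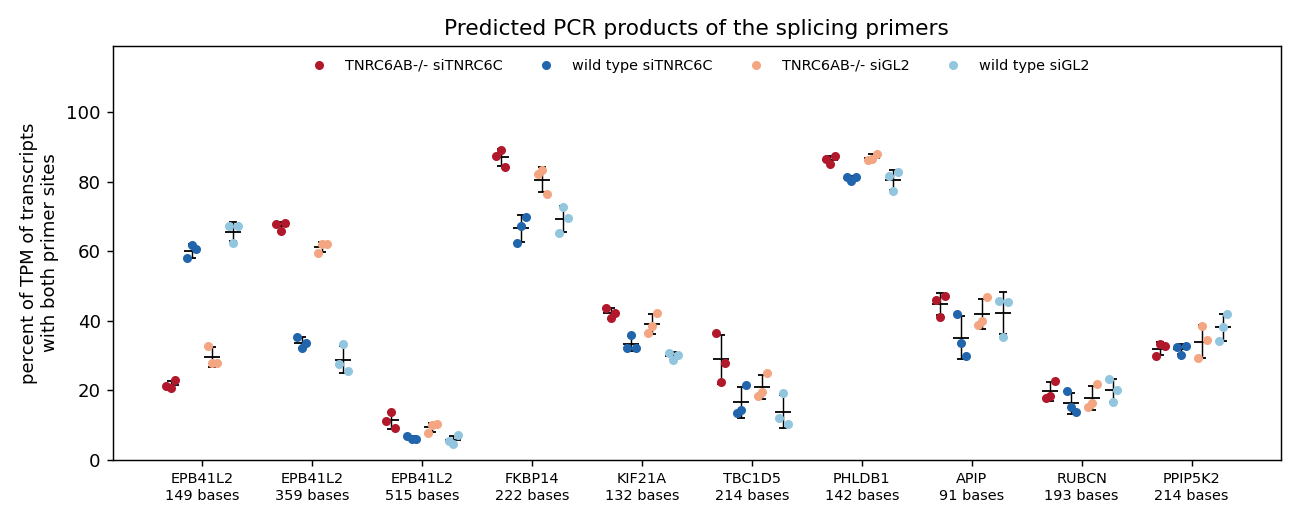
Percent of the TPM of transcripts with both primer sites that belongs to each predicted product, by library, for 8 genes in the 12 transfected libraries; points are libraries and black bars the mean ± SD of 3. Genes other than EPB41L2 are shown by the product with the largest TNRC6AB-/- minus wild type share under siTNRC6C. For EPB41L2 the 149 base product lies at 20.6% to 22.9% in TNRC6AB-/- siTNRC6C and 57.9% to 61.7% in wild type siTNRC6C, while PPIP5K2 overlaps.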

How the data were processed

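RNA from 24 libraries (8 groups of 3) was measured by strand-specific whole-transcriptome sequencing. The expected counts (NumReads) and TPM values per transcript are as deposited. The authors made them with Salmon 0.11.0. Their processing notes also name STAR 2.5.3a, DESeq2 and the hg38 build, and the transcript index release is not given in the sources used here. Of 199612 transcripts, 199368 matched GENCODE 29, and the 244 unmatched held at most 0.0544% of a library's reads. Their counts were summed to 57721 genes and rounded to whole numbers. Of these genes, 42413 had reads in the 12 transfected libraries and 23135 passed edgeR's expression filter.

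Fits used edgeR 4.0.16 (R 4.3.3) with TMM scaling (factors 0.932 to 1.09) and the quasi-likelihood test. The 12 transfected libraries entered a single fit of 4 group means with 8 residual degrees of freedom. The 12 untransfected libraries had a fit of their own with 22925 genes tested. P-values were adjusted by the Benjamini-Hochberg method over all genes tested, and standard errors are the log2 fold change divided by the square root of the F statistic. CPM values use TMM-scaled library sizes. PCR product shares are sums of TPM over the transcripts that hold both primers. Target sites were counted as words in the 3′UTRs of GENCODE transcripts of 14684 genes.

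Named genes were the TNRC6 and AGO families, MYC, FAM83F, HPRT1, GAPDH and the genes whose splicing the study assayed. To these were added the 12 called genes with the largest rise and the 12 with the largest fall among those with a mean of at least 5 CPM and no overlap between groups. In each list up to 4 called genes were taken in order of adjusted p, and the 6 genes with the largest difference between duplexes in each direction were named as well. Some genes that this rule picks are not reported here. The members, lists and tests were chosen with earlier results of these data known.

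Replicate numbers are the labels' own. They did not pair the siTNRC6C libraries, while replicates 1 and 3 of the siGL2 groups varied together with the library of the same number. The main fits used no block. Alternatives were DESeq2 1.42.0, other scalings, no expression filter, all 24 libraries in a single fit, the 6 libraries of the comparison alone, counts rebuilt from TPM and length, limma 3.58.1 voom, a replicate block, leaving out each library, 8mer sites and 3′UTR length bins, and PCR products from protein-coding transcripts only. Fits without replicate 3 of both siGL2 groups and without retained-intron transcripts were added after seeing the data. Scripts were tested on simulated data.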

Additional observations from a re-analysis of the deposited data

Results flagged for a closer look

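For 72 named genes the TNRC6AB-/- effect differed between the 2 duplexes by edgeR's test of the difference itself (adjusted p under 0.05, beyond 0.6 on the log2 scale). Over all tested genes the share was 8.74%. The 72 include the 6 genes with the largest called difference in each direction, which were named by this same test. Others were named for their change under siTNRC6C, so the count cannot be set against that share. Values in parentheses are the TNRC6AB-/- over wild type log2 fold change under siTNRC6C minus the same under siGL2, so a positive value means a higher effect under siTNRC6C. Replicates 3 of both siGL2 groups stood apart from their own replicates. Without them 69 of the 72 genes were still called, and DHCR7, RFC5 and ZFP36L2 were not. With all 24 libraries in a single fit 33 were called. With counts rebuilt from TPM and length the calls of TNRC6C, AGO4, BMF, IGF1R, SOCS1, TTN and LYZ were lost, and with upper-quartile scaling those of DHCR7, ELF3, HMMR, ID2, PDIA4, RFC5, TTN and ZFP36L2. The call of LYZ (adjusted p 0.0486 by edgeR) was lost in 16 of 22 alternatives, those of SOCS1 and ZFP36L2 in 8 each and that of DHCR7 in 7.

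The difference was positive for 3 of the named members of the let-7 target list, NR6A1 (2.19), HMGA2 (0.98) and ARID3A (0.95), and for IGDCC3 (2.93). It was positive for ZEB1 (0.99), QKI (0.69) and LAMC1 (0.91) of the miR-200 target list and STK40 (1.04) of the miR-21 target list. Among mesenchymal, matrix and adhesion genes and targets of YAP and TEAD it was positive for VIM (1.13), SNAI2 (2.53), COL1A1 (0.77), ITGA6 (0.62), ITGB4 (0.92), CTGF (0.71) and ANKRD1 (1.77). Among signalling genes it was positive for SPRY4 (1.11), IL17RD (1.11), IGF1R (0.61), SKIL (0.91), SOCS1 (0.74) and SOX9 (0.73). In the cell cycle, p53, MYC network and BCL2 family lists it was positive for CDKN2B (0.67), SESN2 (0.70), TP53INP1 (0.86), MXD1 (0.77), MXD4 (0.64) and BMF (1.27). The remaining positive differences were those of SLC2A3 (2.33), LTBP2 (1.82), DOCK4 (1.61), KRTAP2-3 (1.29), LYZ (1.20), GRIK2 (0.98), DCLK1 (0.81) and AGO4 (0.74).

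The difference was negative for TNRC6C (-1.24), the target of the siTNRC6C duplexes. In the epithelial and intestinal lists it was negative for CDH1 (-0.93), EPCAM (-0.95), GRHL2 (-1.30), ELF3 (-0.69), MAL2 (-1.24), CEACAM1 (-1.16) and CA2 (-0.82). In the S phase, mitosis, MYC network and ribosome biogenesis lists it was negative for MYC (-0.77), MCM3 (-0.76), MCM4 (-0.86), RFC5 (-0.65), E2F8 (-0.87), CDC20 (-0.77), HMMR (-0.71), RRP9 (-1.02), UTP4 (-0.78) and POLR1C (-0.80). In the lists of cholesterol synthesis, glycolysis and the unfolded protein response it was negative for DHCR7 (-0.65), HK2 (-0.83), PDIA4 (-0.72) and SDF2L1 (-1.05). HPRT1 (-0.80), a reference gene of the study's PCR assays, was negative as well. The remaining negative differences were those of SLC1A3 (-3.59), TNFSF18 (-3.04), KRT7 (-2.50), CEMIP (-2.30), TGFB2 (-2.28), SUSD2 (-2.01), DKK1 (-1.50), PROM1 (-1.43), S100A14 (-1.21), MKX (-1.15), TTN (-1.10), ITGB8 (-0.79), ID2 (-0.67) and ZFP36L2 (-0.64).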

How the results depend on the processing

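The main comparison kept its counts within 1.5 times under every alternative run. Leaving out each of its 6 libraries in turn gave 3902 to 4287 genes higher and 3167 to 3471 genes lower (4487 and 3431 as reported). DESeq2 gave 3465 higher and 3649 lower. The replicate numbers did not pair the libraries: deviations of the same-numbered libraries of the main comparison correlated at -0.167, -0.215 and -0.270, and those of the siGL2 libraries at 0.597, 0.057 and 0.709. With a replicate block 4578 genes were higher and 3425 lower, and 917 and 1179 genes had a higher or lower effect under siTNRC6C. Of 2718 checks of named genes in the main comparison, 2692 kept both direction and call. Many of these genes were named for a large change or a small adjusted p in this same comparison. That selection favours calls that are kept, so the count does not describe genes in general. TNRC6A reversed to 0.0645 with counts rebuilt from TPM and length.

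The siGL2 comparison had 1996 genes higher, and 1301 with all 24 libraries in a single fit. The counts of genes whose effect differed between the duplexes moved most. The number with a higher effect (844) became 1346 with upper-quartile scaling and 195 with all 24 libraries, and the number with a lower effect (1179) became 590 and 423 under the same alternatives. Leaving out each transfected library gave 661 to 1261 with a higher effect and 712 (without wild type siGL2 replicate 3) to 1531 (without TNRC6AB-/- siGL2 replicate 3) with a lower effect. Without replicate 3 of both siGL2 groups the counts were 1088 and 798. The difference of TTN reversed from -1.10 to 0.62 with counts rebuilt from TPM and length. In the untransfected comparison 1580 genes were lower, and leaving out each library gave 929 (without TNRC6AB-/- replicate 2) to 1519 (without wild type replicate 3). The cause of these changes was not tested.

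The shift of let-7 site genes, 0.177 on the log2 scale over all lengths, was 0.128, 0.051, 0.102, 0.083 and 0.066 in the 5 bins of 3′UTR length, from shortest to longest. Words of miR-17, miR-92/25, miR-34 and siTNRC6C SS2 were positive in all 5 bins as well. Within bins the shift turned negative by more than the spread between libraries for miR-21 (-0.107 in bin 1), miR-30 (-0.031 in bin 2) and miR-141/200a (-0.025 in bin 3). For words matching the siTNRC6C strands it did so for AS1 (-0.034 in bin 3), AS2 (-0.026 in bin 4), SS1 (-0.043, -0.061 and -0.025 in bins 1, 3 and 4) and SS3 (-0.046 and -0.041 in bins 2 and 3). Smaller negative values, such as -0.012 in bin 4 for the seed of miR-200b, are not listed. Salmon counts are estimates shared among transcripts with common sequence, so values of close paralogs are uncertain, and genes below the expression filter could not be tested at this depth.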

Other observations

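Noncoding genes had higher median fold changes than coding genes between TNRC6AB-/- siTNRC6C and wild type siTNRC6C, with no cause tested. Of 15072 tested protein-coding genes, 2201 were higher and 2668 lower by edgeR, with a median log2 fold change of -0.06. Of 2219 tested long intergenic noncoding RNA genes, 689 were higher and 186 lower, with a median of 0.48. Of 1798 tested genes annotated as antisense, 422 were higher and 212 lower, with a median of 0.34. The library kit keeps strand, but the counting setting for strand is not given in the sources used here, so reads of an antisense gene and of its partner may not be fully told apart. The share of reads on retained-intron transcripts was also higher in TNRC6AB-/- siTNRC6C, and its part in these shifts was not tested.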
